A study of Mus musculus with 36 samples.

Results

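The data described here are the difference between genotypes in the early transcriptional response of mouse macrophages to lipopolysaccharide (LPS), taken as the LPS change in NOS1 KO cells minus the LPS change in WT cells. It rests on 24 of the 36 libraries of the series, chosen by their labels: 6 of NOS1 KO macrophages after 2 h with 100 ng/mL LPS, 6 of NOS1 KO untreated controls, 6 of WT macrophages after the same LPS treatment and 6 of WT untreated controls. Libraries whose genotype label carries the prefix BMDM (1 per group) were counted with their genotype. All cells were bone marrow-derived macrophages (BMDM), grown from marrow for 5 days with 20 ng/mL of the growth factor MCSF, and RNA was sequenced in bulk. The series gives the WT strain as C65BL6. The sources used here do not give the KO allele, the strain of the KO mice, or the number, sex and age of the mice. Nothing in the labels says that libraries of a group came from separate mice or cultures, so a p-value reflects the library-to-library spread, part of which may be technical. In the 24 libraries the reads assigned to genes totalled between 9157129 and 18482551 per library, and 12957 genes passed the filter on low counts and were tested.

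LPS is sensed by Toll-like receptor TLR4, which signals through MyD88 to NF-kB and the inflammatory cytokine genes, and through TRIF to IRF3 and the interferon-beta gene. Secreted interferon beta then acts back on the cells through its receptor and the factor ISGF3, a complex that includes Stat2 and Irf9, which binds interferon-stimulated response elements and switches on antiviral genes. Resting macrophages hold a basal level of these interferon-stimulated genes that depends on tonic interferon signalling. Nos1 encodes neuronal nitric oxide synthase, 1 of the nitric oxide synthases, of which Nos2 is the form that LPS induces in mouse macrophages.

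The targeted gene went against the genotype labels. Nos1 (chr5:117781032-117958840, + strand, mm10) had 30 to 83 counts per library in the 12 KO-labelled libraries, against 0 to 4 counts per library in the 12 WT-labelled libraries. The genotypes are therefore given throughout as the labels have them, and every direction stated for KO-labelled against WT-labelled libraries depends on those labels. The counts do not show which part of the gene the reads came from. The 12 macrophage marker genes summed to between 13289 and 21055 CPM (counts scaled to a library of 1000000 reads) over the 24 libraries, with no marker at 0 in any group.

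The libraries also fell into sets that the labels do not give. After the mean of each group was subtracted, the first principal component held 34.6% of the variance and divided all 6 groups of the series alike, with 3 libraries of each group on either side. Replicates 3, 4 and 5 of every group are called set B here, and replicates 1, 2 and 6 set A (replicate numbers follow accession order). Leaving the 59 interferon-stimulated genes out of the component put 36 of 36 libraries in the same set. Of the WT-labelled libraries, replicate 1 of both treatments, in set A, held Xist reads (464 CPM after LPS and 370 CPM untreated) and no Ddx3y reads, while no other library of the 24 held more than 1 Xist read. Replicates 6 and 5 of the WT LPS group held summed skeletal muscle marker levels of 639 and 247 CPM, against at most 87.7 CPM in the other 22 libraries. The WT-labelled libraries of the sets also differed at Gm8730, a pseudogene of the ribosomal protein gene Rplp0. Gm8730 had 285 to 302 CPM in KO-labelled LPS libraries and 256 to 302 CPM in KO-labelled controls over both sets. In WT-labelled libraries of set B it had 145 to 162 CPM after LPS and 127 to 140 CPM untreated, while WT-labelled libraries of set A had 1.27 to 3.13 CPM after LPS and 1.39 to 2.22 CPM untreated. Rplp0 lay the other way, at 460 to 554 CPM in KO-labelled libraries, against 653 to 783 CPM in the WT-labelled libraries of set B, with set A at 907 to 1110 CPM. Reads of such near-identical copies may be divided between them, so these counts are uncertain as expression, and their part in the results by set was not tested. Since the sets were found in the same expression values, results by set are a description of these libraries and the difference between sets is not independent of how the sets were found.

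Over all 24 libraries no gene passed the test of the genotype difference in the LPS response, while the interferon-stimulated genes lay lower as a group. In edgeR's quasi-likelihood test with Benjamini-Hochberg adjustment, 0 of 12957 genes were called at an adjusted p under 0.05 (0% called). At an unadjusted p under 0.05 the same test gave 155 genes (1.20%). For 35 of them the difference in response was above 0 (0.270%) and for 120 it was below 0 (0.926%). A difference above 0 can be a larger rise or a smaller fall after LPS in KO-labelled libraries, on the log2 scale. DESeq2 called 0 genes, with 183 at an unadjusted p under 0.05 (1.41%), and limma-voom called 0, with 137 (1.06%). Each of the 10 genes of smallest p in the lower direction was at an adjusted p of 1, and they were Gbp5, Cxcl10, Gbp3, Isg15, Rsad2, Lpar1, Dtx3l, Cmpk2, Ifit1 and Oasl1. Gbp3, a guanylate-binding GTPase of cell-autonomous defence, had a log2 difference of -1.34 ± 0.38 (SE). In the other direction the gene of smallest p was Zdhhc24, followed by Cpeb2, Atg10, Snx30, Cep83os and Arhgap25.

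Of 61 genes on the interferon-stimulated list 59 were tested, and 59 of 59 had a pooled log2 difference below 0 (58 of 59 when scaled by library totals alone), with a median of -0.75. Over all genes tested 50.8% lay below 0 and the median was 0.00. Of the 59, 21 reached an unadjusted p under 0.05, against 0.926% of all genes in that direction, and 0 were called. The LPS change of these genes had a median of 1.0 in KO-labelled libraries, with 35 of 59 called higher (18.9% of all genes), and of 1.86 in WT-labelled libraries, with 45 of 59 called higher (20.3% of all genes). Scaling by library totals in place of TMM moved the median LPS change of all genes to -0.31 in KO-labelled and -0.32 in WT-labelled libraries and the calls to 1480 higher and 5798 lower in KO-labelled libraries, against 2445 and 2123 (16.4%) with TMM, while the median of the genotype difference in response was 0.01. A value below 0 here is a smaller rise, not a fall: no gene of the list was called lower after LPS in either genotype. Between genotypes over all libraries the list had a median of 1.16 in controls, where 11 of 59 were called higher in KO-labelled libraries (0.139% of all genes), and of 0.44 at 2 h, where 0 of 59 were among the 3 genes called (0.0232%).

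**Figure D1:**
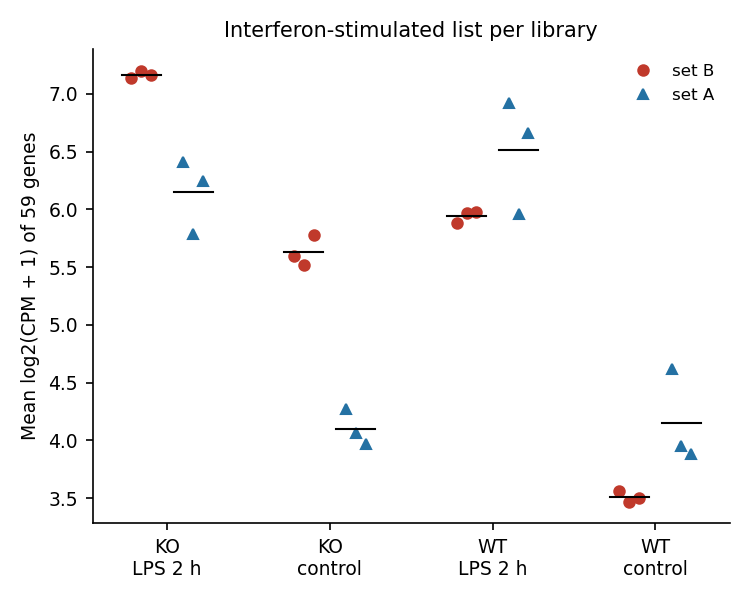
Mean log2(CPM + 1) of the 59 interferon-stimulated genes in each of the 24 libraries (y axis) by group (x axis). Red circles are set B and blue triangles set A, and black bars are means of 3 libraries. In set B the KO-labelled controls (5.52 to 5.78) lie above the WT-labelled controls (3.47 to 3.56), while in set A they lie within 3.97 to 4.27 against 3.88 to 4.62.

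The list's mean level per library showed how the sets differ. In set B it was 7.14, 7.20 and 7.16 in KO-labelled LPS libraries and 5.60, 5.52 and 5.78 in KO-labelled controls. The WT-labelled libraries of set B had 5.88, 5.97 and 5.98 after LPS and 3.56, 3.47 and 3.50 untreated. Both KO-labelled groups of set B thus lay above their WT-labelled counterparts with no overlap, and the gap was wider in the controls. In set A the level was 6.41, 5.79 and 6.25 in KO-labelled LPS libraries and 4.27, 4.06 and 3.97 in KO-labelled controls. The WT-labelled libraries of set A had 6.92, 5.96 and 6.66 after LPS and 4.62, 3.95 and 3.88 untreated. The genotypes overlapped in set A at both times, and the highest WT-labelled value at each time was that of replicate 1, the libraries with Xist reads.

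When each set was given its own group means, the difference in response was called for 31 genes in set B (0.239% called), and it was mostly an interferon signature. Of these, 29 had a difference below 0 (0.224%) and 2 a difference above 0 (0.0154%). The 29 included 19 of the 59 tested genes of the interferon-stimulated list, among them Isg15, Ifit1, Ifit3, Rsad2, Cmpk2, Oasl1, Oasl2, Mx1, Irf7, Irf9, Stat2, Ifih1, Rtp4, Xaf1, Parp9, Parp14 and Dtx3l. The 10 outside the list were Ifi211, Ifi203, Ifi207, Znfx1, Slfn2, Helz2, Samd9l, Gm12250, the chemokine Ccl5 and Rhob. The fit to set B libraries alone called 133 genes (1.03%), 114 of them lower (0.879%) and 44 of those on the interferon-stimulated list, and it called all 31. In set A 2 genes were called (0.0154%), neither of them on the list, and the fit to set A libraries alone called 0 genes with edgeR, with 349 at an unadjusted p under 0.05 (2.73%). Replicates differed more from each other within set A than within set B. The numbers of calls therefore do not compare the size of the difference between the sets. Leaving out 1 library at a time gave 16 to 42 calls in set B, the fewest without WT control replicate 4 (16), KO control replicate 5 (18), and WT control replicate 5 or KO LPS replicate 3 (20 each). In set A the same gave 0 to 43 calls, the most without KO control replicate 2 (43) and WT LPS replicate 2 (10), and 0 or 1 without any 1 of 8 other libraries.

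**Figure D2:**
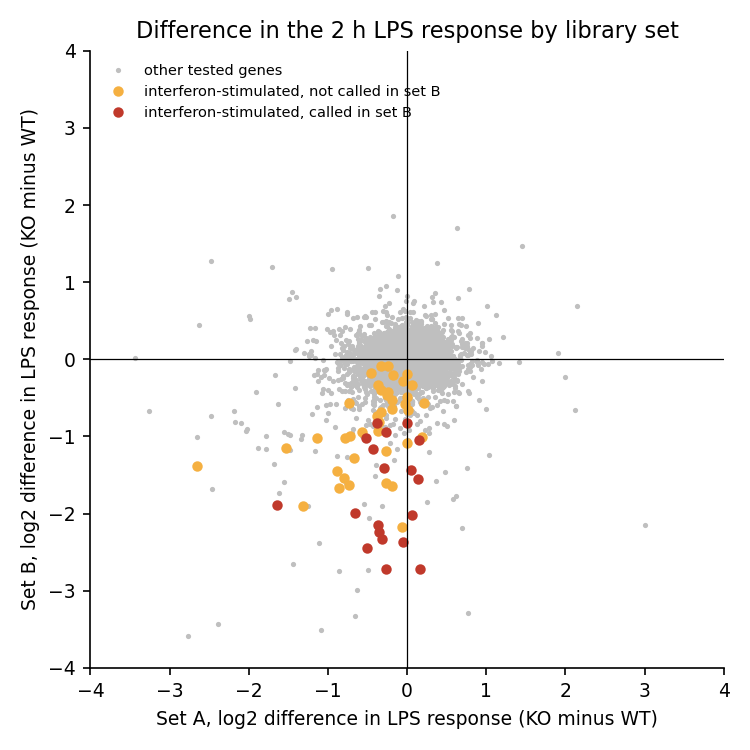
Log2 difference in the 2 h LPS response, KO-labelled minus WT-labelled, in set B (y axis) against set A (x axis) for 9883 genes (mean log2 CPM at least 2), of which 12 lie outside the plotted range. Grey points are other tested genes, and the 59 interferon-stimulated genes are red where called in set B and orange where not: all 59 lie below 0 in set B, and 49 lie below 0 in set A (46 by library totals, 51 by RLE scaling).

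The interferon-stimulated list had a median log2 difference of -1.02 in set B, with 59 of 59 genes below 0, and of -0.31 in set A, with 49 of 59 below 0 (46 by library totals, 51 by RLE scaling), against medians of -0.01 and 0.00 over all genes. In set B the median LPS change of the list was 0.79 in KO-labelled and 2.18 in WT-labelled libraries. Between genotypes of set B the list's median was 2.10 in controls, where 59 of 59 were called higher in KO-labelled libraries (2.49% of all genes), and 1.18 at 2 h, where 50 of 59 were called higher (2.31%). In set A the median LPS change was 1.66 in KO-labelled and 1.85 in WT-labelled libraries. There the list lay at -0.10 between genotypes in controls and at -0.37 at 2 h, with 58 of 59 genes below 0 at 2 h, of which 35 reached an unadjusted p under 0.05 (5.00% of all genes in that direction) and 0 were called by edgeR (0.116% of all genes called lower). This was not particular to the list. At 2 h in set A 30 of 31 NF-kB targets, 21 of 23 classical activation genes and 20 of 22 MHC class I genes also lay below 0. Over all genes 50.4% did, and the medians of immediate early, alternative activation and sterol and LXR genes were 0.08, 0.13 and 0.14. Without the pair of libraries with Xist reads the median of set A was -0.32.

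The difference between the sets was tested directly for each gene. Set B minus set A was called for 2 genes (0.0154%), Isg15 and Ifi211, both lower. The list's median for that difference was -0.57. Averaged over the sets with equal weight, 18 genes were called (0.139%), 15 lower and 3 higher, of which 9 were on the interferon-stimulated list and 13 were also called in set B.

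Markers of other cell types also differed by set and group. The summed level of 16 neutrophil markers in set B was 259 to 272 CPM in KO-labelled LPS libraries and 133 to 156 CPM in KO-labelled controls, against 393.7 to 428 CPM in WT-labelled LPS libraries and 223 to 249 CPM in WT-labelled controls. In set A it was 105 to 132 CPM in KO-labelled LPS libraries and 75.3 to 80.0 CPM in KO-labelled controls, against 75.7 to 119 CPM in WT-labelled LPS libraries and 42.2 to 58.9 CPM in WT-labelled controls. Among these markers Ly6g was at 0 in the KO-labelled controls of set A and no other was at 0 throughout a group and set. Stromal markers in set B summed to 38.3 to 44.3 CPM in KO-labelled LPS libraries and 32.8 to 38.6 CPM in KO-labelled controls, against 79.3 to 88.3 and 66.4 to 77.5 CPM in the WT-labelled ones, with Lum and Thy1 at 0 in the KO-labelled LPS group. Erythroid and megakaryocyte markers in set B summed to 132 to 144 and 118 to 125 CPM in KO-labelled LPS and control libraries, against 199 to 219 and 172 to 176 CPM in the WT-labelled ones. B cell markers in set B summed to 20.9 to 28.2 and 28.1 to 32.2 CPM in KO-labelled LPS and control libraries, against 36.2 to 46.6 and 45.1 to 46.1 CPM in the WT-labelled ones, with Igll1 at 0 in the KO-labelled LPS group. The neutrophil, stromal, erythroid and B cell sums were thus lower in KO-labelled libraries of set B at both times with no overlap. In set A the stromal, erythroid and B cell sums overlapped between genotypes at both times. Dendritic cell markers in set B went the other way, at 361.5 to 370 and 248.2 to 264.5 CPM in KO-labelled LPS and control libraries. The WT-labelled ones had 314.6 to 349.1 and 207.8 to 233.2 CPM. T and NK cell markers in set B summed to 8.24 to 8.31 and 7.30 to 8.43 CPM in KO-labelled LPS and control libraries. The WT-labelled ones had 10.27 to 12.24 and 10.62 to 11.99 CPM, with no overlap. Of these 16 markers, 6 were at 0 throughout each LPS group and 9 throughout each control group of set B. Only 2 passed the filter on low counts. Cd4 had 79 to 171 counts per LPS library of set B and 95 to 186 per control. Lck had 9 to 17 and 5 to 13. The sums thus rest mainly on Cd4 and do not show a shift of these markers as a set. Mast cell and basophil markers were lower after LPS and overlapped in the controls. Skeletal muscle markers overlapped at both times. In bulk RNA fewer cells of a type and less RNA per cell cannot be told apart, and the part of these markers in the results by set was not tested.

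Promoter sequence is shown for 3 antiviral effector genes that moved together in set B, because interferon-stimulated response elements are short enough to be read directly. The 200 bases before each RefSeq transcription start are given 5′ to 3′ on the gene's strand (RefSeq, GRCm38.p6), with every match to the core GAAANNGAAA on either strand in capitals. Overlapping matches form 1 run of capitals.
Isg15: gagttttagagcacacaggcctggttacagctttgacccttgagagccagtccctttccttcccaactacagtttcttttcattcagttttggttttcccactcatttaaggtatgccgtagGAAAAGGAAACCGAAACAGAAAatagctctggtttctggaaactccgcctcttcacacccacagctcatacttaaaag
Ifit1: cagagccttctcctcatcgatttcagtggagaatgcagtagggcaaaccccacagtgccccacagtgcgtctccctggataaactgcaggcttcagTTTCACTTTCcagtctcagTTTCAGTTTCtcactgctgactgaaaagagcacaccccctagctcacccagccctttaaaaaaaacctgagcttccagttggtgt
Rsad2: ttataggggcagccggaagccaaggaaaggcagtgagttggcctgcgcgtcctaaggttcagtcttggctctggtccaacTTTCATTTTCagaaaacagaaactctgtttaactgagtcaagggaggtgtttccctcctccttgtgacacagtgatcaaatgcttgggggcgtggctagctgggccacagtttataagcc
The Isg15 window (chr4:156200819-156201018, - strand) held 3 overlapping matches, the Ifit1 window (chr19:34640689-34640888, + strand) held 2, and the Rsad2 window (chr12:26456453-26456652, - strand) held 1. The matching window of Ifi211 held 1, and those of Irf7, Cxcl10 and Arhgap25, also called in set B, held 0. In the 250 bases before the start, the core was found in 821 of 27025 mouse promoters (3.04%), in 285 of 9769 tested genes with a promoter entry (2.92%), in 9 of 23 set B lower calls with an entry (39.1%) and in 24 of 45 interferon-stimulated genes with one (53.3%). A match is a description of the letters and not a binding site.

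Isg15, a ubiquitin-like protein conjugated to viral and host proteins, had the smallest p of the set B calls. Its level in set B was 303, 314 and 297 CPM in KO-labelled LPS libraries and 50.1, 51.8 and 61.6 CPM in KO-labelled controls. WT-labelled libraries of set B had 189, 194 and 189 CPM after LPS and 6.11, 4.80 and 4.72 CPM untreated. KO-labelled libraries of set B thus lay higher at both times with no overlap, and the gap was wider in the controls. The LPS change was 2.48 ± 0.18 on the log2 scale in KO-labelled and 5.20 ± 0.22 in WT-labelled libraries of set B, a difference of -2.72 ± 0.28 (adjusted p = 5.91e-07, edgeR). In set A Isg15 had 258, 204 and 231 CPM in KO-labelled LPS libraries and 7.98, 9.28 and 6.82 CPM in KO-labelled controls. WT-labelled libraries of set A had 305, 238 and 279 CPM after LPS and 18.0, 8.86 and 5.49 CPM untreated. The genotypes overlapped at both times in set A, where the difference in response was 0.17 ± 0.28, and set B minus set A was -2.89 ± 0.39 (adjusted p = 0.000193, edgeR). The pooled difference was -1.77 ± 0.53.

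**Figure D3:**
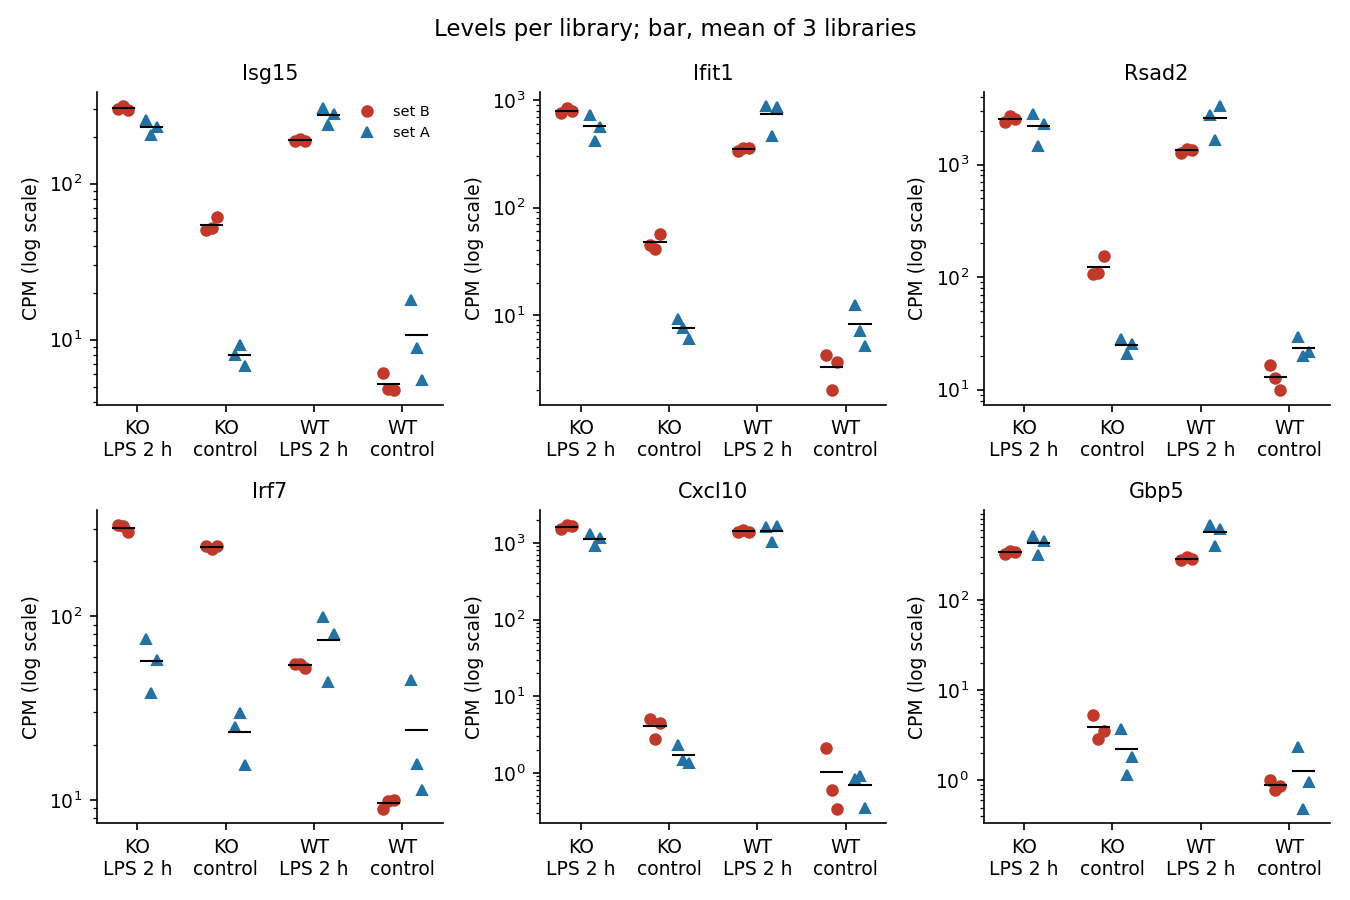
Levels of Isg15, Ifit1, Rsad2, Irf7, Cxcl10 and Gbp5 in CPM (y axis, log scale) in each of the 24 libraries by group (x axis). Red circles are set B, blue triangles set A, and bars are means of 3 libraries. In set B the KO-labelled controls lie above the WT-labelled controls for all 6 genes, and for Irf7 they lie near the KO-labelled LPS libraries (233 to 243 against 290 to 316 CPM).

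Ifit1, which binds RNA whose cap marks it as foreign, and Rsad2, the antiviral enzyme viperin, followed the same pattern. Ifit1 averaged 797 ± 40.2 CPM in KO-labelled LPS libraries and 47.6 ± 7.93 CPM in KO-labelled controls of set B (SD, n = 3). In WT-labelled libraries of set B it averaged 353 ± 11 CPM after LPS and 3.29 ± 1.17 CPM untreated. The difference in response was -2.71 ± 0.36 in set B (adjusted p = 6.48e-05, edgeR) and -0.27 ± 0.35 in set A, where KO-labelled LPS libraries spanned 415 to 735 CPM and WT-labelled ones 462 to 879 CPM. Rsad2 reached 2398, 2694 and 2532 CPM in KO-labelled LPS libraries of set B, against 1279, 1381 and 1358 CPM in WT-labelled LPS libraries. In the controls of set B it had 107, 109 and 155 CPM in KO-labelled and 16.4, 12.8 and 9.84 CPM in WT-labelled libraries. Its difference in response was -2.34 ± 0.31 in set B (adjusted p = 7.32e-05, edgeR) and -0.31 ± 0.31 in set A. Cmpk2, a mitochondrial nucleotide kinase and the neighbour of Rsad2 on chromosome 12, had -2.0 ± 0.35 in set B (adjusted p = 0.0026, edgeR) and -0.66 ± 0.35 in set A. Ifit3, the partner of Ifit1, had -2.45 ± 0.50 in set B (adjusted p = 0.0162, edgeR) and -0.50 ± 0.46 in set A. Members of the Ifit family and the interferon-inducible p200 genes have near-identical copies, so how their reads were divided is uncertain.

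Irf7, Stat2 and Irf9 encode regulators of the interferon response, and the controls of set B differed between genotypes for each. Irf7, which amplifies interferon production, had 316, 309 and 290 CPM in KO-labelled LPS libraries of set B and 242, 233 and 243 CPM in the KO-labelled controls. The WT-labelled libraries of set B had 55.1, 55.2 and 52.2 CPM after LPS and 8.92, 9.89 and 9.97 CPM untreated. Untreated KO-labelled libraries of set B thus held more Irf7 than WT-labelled libraries did after LPS. The LPS change of Irf7 in set B was 0.35 ± 0.28 in KO-labelled libraries (adjusted p = 0.356, edgeR) and 2.49 ± 0.32 in WT-labelled libraries (adjusted p = 1.52e-07, edgeR), a difference of -2.14 ± 0.42 (adjusted p = 0.0134, edgeR). In set A the genotypes did not separate, with 75.3, 38.1 and 57.8 CPM in KO-labelled and 99.7, 43.8 and 80.5 CPM in WT-labelled LPS libraries, and the difference was -0.37 ± 0.42. Between the controls of set B, KO-labelled minus WT-labelled, Stat2 differed by 1.64 ± 0.16 and Irf9 by 1.35 ± 0.10, both less than the list's median of 2.10. Stat2, the ISGF3 subunit that carries the activation domain, had an LPS change of 0.14 ± 0.15 in KO-labelled and 1.08 ± 0.16 in WT-labelled libraries of set B, a difference of -0.95 ± 0.21 (adjusted p = 0.0481, edgeR). Irf9, its DNA-binding partner, had 0.30 ± 0.10 and 1.12 ± 0.10 in the same groups, a difference of -0.82 ± 0.14 (adjusted p = 0.00204, edgeR). In set A the differences were -0.26 ± 0.22 for Stat2 and -0.01 ± 0.14 for Irf9.

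Other genes called in set B encode sensors and effectors of antiviral defence. Ifih1, a cytosolic sensor of double-stranded RNA, averaged 291 ± 11.3 CPM in KO-labelled against 269 ± 3.60 CPM in WT-labelled LPS libraries of set B (SD, n = 3). In the controls of set B it averaged 44.2 ± 2.44 CPM in KO-labelled against 15.4 ± 1.77 CPM in WT-labelled libraries. For Ifih1 the groups came close at 2 h and differed in the controls, and the difference in response was -1.41 ± 0.22 (adjusted p = 0.000924, edgeR). Oasl1, known in mouse to limit Irf7 translation, had -2.37 ± 0.39 in set B (adjusted p = 0.00145, edgeR) and -0.05 ± 0.41 in set A. Mx1, a dynamin-like antiviral GTPase, had -2.24 ± 0.47 in set B (adjusted p = 0.023, edgeR) and -0.35 ± 0.46 in set A. Ifi211, a p200 family protein, was the other gene whose sets differed: its difference in response was -1.85 ± 0.20 in set B (adjusted p = 1e-06, edgeR) and 0.25 ± 0.19 in set A. Znfx1, an RNA helicase of antiviral defence, had -0.98 ± 0.14 in set B (adjusted p = 0.000269, edgeR), and Slfn2, a schlafen protein, had -1.17 ± 0.19 (adjusted p = 0.00143, edgeR). Parp14, an ADP-ribosyltransferase, had -1.17 ± 0.22 (adjusted p = 0.00787, edgeR). Rtp4, an interferon-induced zinc finger protein, had -2.02 ± 0.35 (adjusted p = 0.00243, edgeR).

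All 29 genes called lower in set B were also called higher in the KO-labelled controls of that set than in its WT-labelled controls (2.49% of all genes). Of the 29, 22 were called higher in KO-labelled libraries of set B at 2 h (2.31% of all genes). All 29 were called higher after LPS in WT-labelled libraries of set B (20.1% of all genes), and 26 of 29 in KO-labelled libraries (18.8%). The 29 were picked from the same libraries, so these counts describe them and test nothing. In set A 22 of the 29 had a difference below 0, against 50.3% of all genes.

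The interferon-beta gene itself was higher in KO-labelled libraries of set B after LPS. Ifnb1 had 140, 128 and 127 CPM in KO-labelled LPS libraries of set B, against 29.0, 29.2 and 26.7 CPM in WT-labelled LPS libraries, a difference at 2 h of 2.22 ± 0.14 on the log2 scale (adjusted p = 1.55e-12, edgeR). In set A it had 70.5, 68.3 and 73.6 CPM in KO-labelled and 58.4, 55.2 and 75.6 CPM in WT-labelled LPS libraries, a difference of 0.17 ± 0.14. The genotypes did not overlap in set B and overlapped in set A. With 0 to 5 counts per library in KO-labelled controls and 0 or 1 in WT-labelled controls, no difference in response was computed for Ifnb1.

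Cxcl10 and Gbp5, first in the pooled ranking, had differences in response of similar size in both sets. Cxcl10, a ligand of the receptor Cxcr3, had 1525, 1728 and 1653 CPM in KO-labelled and 1368, 1462 and 1399 CPM in WT-labelled LPS libraries of set B. In the controls of set B it had 5.02, 2.73 and 4.44 CPM in KO-labelled and 2.12, 0.60 and 0.337 CPM in WT-labelled libraries. The controls of set A had 2.32, 1.48 and 1.35 CPM in KO-labelled and 0.827, 0.904 and 0.347 CPM in WT-labelled libraries, on 5 to 79 counts per control library over both sets. KO-labelled controls lay above WT-labelled ones within each set, while at 2 h the levels were close. The difference in response was -1.89 ± 0.40 in set B (adjusted p = 0.0239, edgeR) and -1.65 ± 0.48 in set A (adjusted p = 0.645, edgeR), and its average over the sets was -1.77 ± 0.31 (adjusted p = 0.00673, edgeR). Gbp5, a GTPase that promotes inflammasome assembly, had -1.91 ± 0.46 in set B (adjusted p = 0.0898, edgeR), -1.32 ± 0.48 in set A and -1.61 ± 0.33 on average (adjusted p = 0.027, edgeR), also from low control counts (8 to 80 per library). Ccl5, a chemokine that attracts T cells and monocytes, had -1.91 ± 0.40 in set B (adjusted p = 0.0235, edgeR) and -0.32 ± 0.54 in set A. Of 19 tested chemokines 2 were called lower in set B (0.224% of all genes), Cxcl10 and Ccl5, and the fit to set B libraries alone called 6 lower (0.879% of all genes), adding Cxcl16, Ccl9, Ccl12 and Ccl7. For the chemokines, the list's median was -0.44 in set B, -0.12 in set A and -0.25 over all libraries (-0.49 to -0.16 with 1 library left out).

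Genes with a larger response value in KO-labelled libraries were few, and the clearest was a gene that LPS lowers. Arhgap25, a Rac GTPase-activating protein of phagocytes, had 32.8, 32.0 and 37.4 CPM in KO-labelled and 19.8, 17.2 and 18.2 CPM in WT-labelled LPS libraries of set B. In the controls of set B it had 146, 148 and 161 CPM in KO-labelled and 139, 145 and 177 CPM in WT-labelled libraries. Set A had 73.4, 84.2 and 80.3 CPM in KO-labelled and 50.6, 59.9 and 48.6 CPM in WT-labelled LPS libraries. Its controls in set A had 154, 239 and 185 CPM in KO-labelled and 219, 227 and 219 CPM in WT-labelled libraries. In both sets the KO-labelled LPS libraries lay above the WT-labelled ones with no overlap, while the controls overlapped. The difference in response was 0.91 ± 0.16 in set B (adjusted p = 0.00365, edgeR), 0.79 ± 0.16 in set A (adjusted p = 0.0859, edgeR) and 0.85 ± 0.11 on average (adjusted p = 0.00025, edgeR). The pooled value was 0.80 ± 0.37, where the spread includes the distance between sets.

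**Figure D4:**
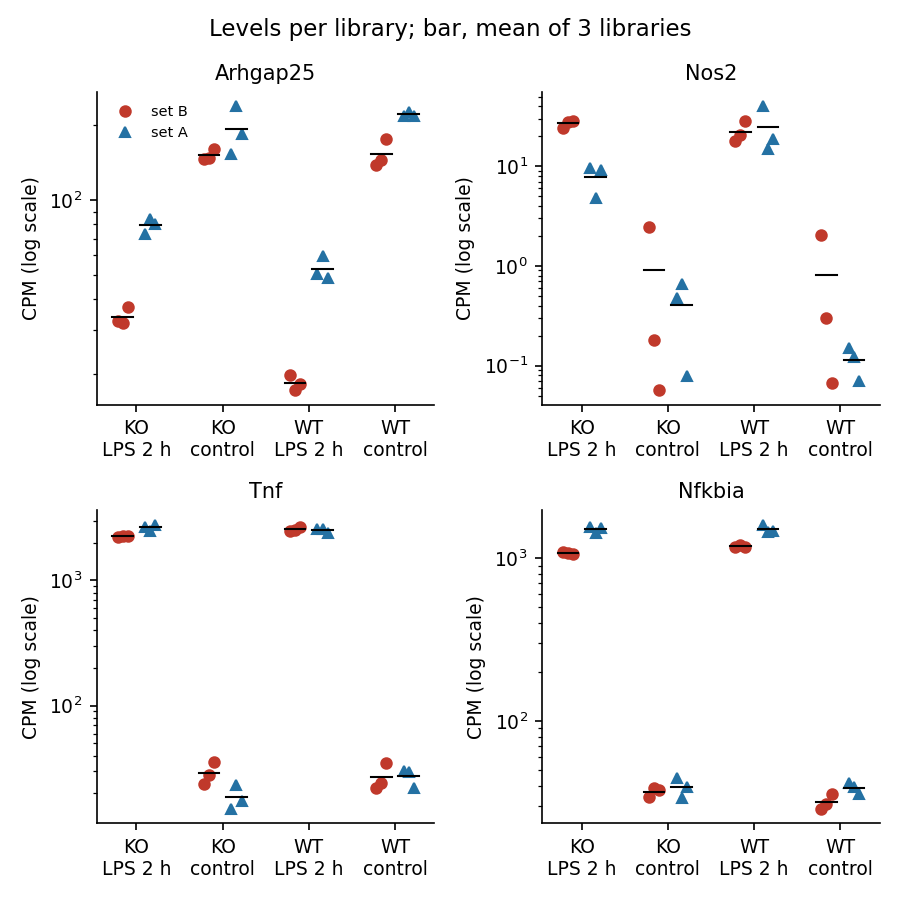
Levels of Arhgap25, Nos2, Tnf and Nfkbia in CPM (y axis, log scale) in each of the 24 libraries by group (x axis). Red circles are set B, blue triangles set A, and bars are means of 3 libraries. Arhgap25 lies higher in KO-labelled LPS libraries than in WT-labelled LPS libraries within each set. Nos2 lies lower in KO-labelled LPS libraries of set A (4.78 to 9.61 CPM, against 14.9 to 40 CPM in WT-labelled ones). Tnf and Nfkbia after LPS overlap between genotypes in set A. In set B they lie lower in KO-labelled LPS libraries with no overlap (Tnf 2233 to 2272 against 2460 to 2665 CPM, Nfkbia 1060 to 1085 against 1169 to 1202 CPM).

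The remaining genes described here lie outside the interferon response. Ankrd55, an ankyrin repeat protein, had a difference in response of 1.39 ± 0.29 averaged over the sets (adjusted p = 0.0367, edgeR) on 5 to 59 counts per library. Calhm2, a channel protein, was lower by the same measure, at -0.63 ± 0.12 (adjusted p = 0.0101, edgeR), with -0.64 ± 0.16 in set B and -0.61 ± 0.17 in set A. Lztfl1, a regulator of ciliary trafficking, had 0.69 ± 0.14 in set B (adjusted p = 0.0162, edgeR) and -0.28 ± 0.14 in set A. Rhob, a small GTPase of endosomes, had -0.68 ± 0.10 in set B (adjusted p = 0.000653, edgeR) and -0.07 ± 0.10 in set A. The genes called in set A were Zfand5, a zinc finger protein linked to the proteasome, at 0.53 ± 0.09 (adjusted p = 0.0189, edgeR), and Zfp260, a zinc finger protein, at -0.85 ± 0.15 (adjusted p = 0.0189, edgeR). In set B these had -0.08 ± 0.09 and 0.07 ± 0.15.

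NF-kB targets rose with LPS in both genotypes, and the difference was called for none of them over all libraries or by set in the joint fit. All 31 tested NF-kB targets and feedback genes were called higher after LPS in KO-labelled libraries (18.9% of all genes) and in WT-labelled libraries (20.3%), with median changes of 3.12 and 3.34. Their median difference was -0.15, with 26 of 31 below 0, against 50.8% of all genes. Of the 31, 1 gene reached an unadjusted p under 0.05 (0.926% of all genes lower), Nfkb2 (the p100 precursor) at -0.30 ± 0.13. At an unadjusted p under 0.05, 7 of 31 were lower in set B (1.55% of all genes) and 5 in set A (3.20%). The fit to set B libraries alone called 4 of 31 lower (0.879% of all genes), Nfkbie, Traf1, Icam1 and Bcl3. Tnf averaged 2449 ± 237 CPM in KO-labelled against 2537 ± 89.6 CPM in WT-labelled LPS libraries, while KO-labelled controls averaged 23.8 ± 7.48 CPM and WT-labelled controls 27.2 ± 5.34 CPM (SD, n = 6). Its difference in response was 0.14 ± 0.25, less than its error, with -0.29 ± 0.20 in set B and 0.64 ± 0.20 in set A. Nfkbia, the inhibitor that ends NF-kB signalling, had -0.17 ± 0.15, the NF-kB subunits Nfkb1 and Rela had -0.14 ± 0.11 and -0.15 ± 0.17, and the signalling suppressors Socs1 and Socs3 had -0.06 ± 0.41 and -0.31 ± 0.35. Of the 38 tested genes of TLR signalling, 0 were called and 1 reached an unadjusted p under 0.05 (0.926% of all genes lower), Ticam2 (the TRIF-related adaptor TRAM) at -0.53 ± 0.17.

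The cytokine genes described here and Nos2 were at higher levels after LPS in both genotypes, and the errors of their differences were wide. Il1b, the interleukin-1 beta gene, averaged 527 ± 143 CPM in KO-labelled against 598 ± 208 CPM in WT-labelled LPS libraries (SD, n = 6), and its difference in response was -1.0 ± 0.66 with 1 to 23 counts per control library, or -1.95 without WT control replicate 3. Il10, an anti-inflammatory cytokine gene, had -0.16 ± 0.71. Il6 averaged 29.6 ± 16.4 CPM in KO-labelled against 31.3 ± 11.2 CPM in WT-labelled LPS libraries, and Il12b 144 ± 74.5 CPM and 199 ± 63.4 CPM in the same groups. Within each set Il12b at 2 h was lower in KO-labelled libraries with no overlap. It had 196 to 226 against 233 to 267 CPM in set B, and 59.1 to 89.6 against 93.9 to 202 CPM in set A. Il6 overlapped between genotypes in both sets. No difference in response was computed for Il6 and Il12b, whose controls held at most 2 and 10 counts. Nos2, the inducible nitric oxide synthase, had 24.1, 28.0 and 28.7 CPM in KO-labelled and 17.7, 20.7 and 28.1 CPM in WT-labelled LPS libraries of set B. In set A it had 9.61, 4.78 and 9.24 CPM in KO-labelled and 40, 14.9 and 18.9 CPM in WT-labelled LPS libraries. The genotypes overlapped in set B and not in set A, where Nos2 at 2 h was lower in KO-labelled libraries by -1.68 ± 0.37 (adjusted p = 0.0422, edgeR). Its difference in response was -1.08 ± 0.88 over all libraries, on 1 to 37 counts per control library, and was not called.

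**Figure D5:**
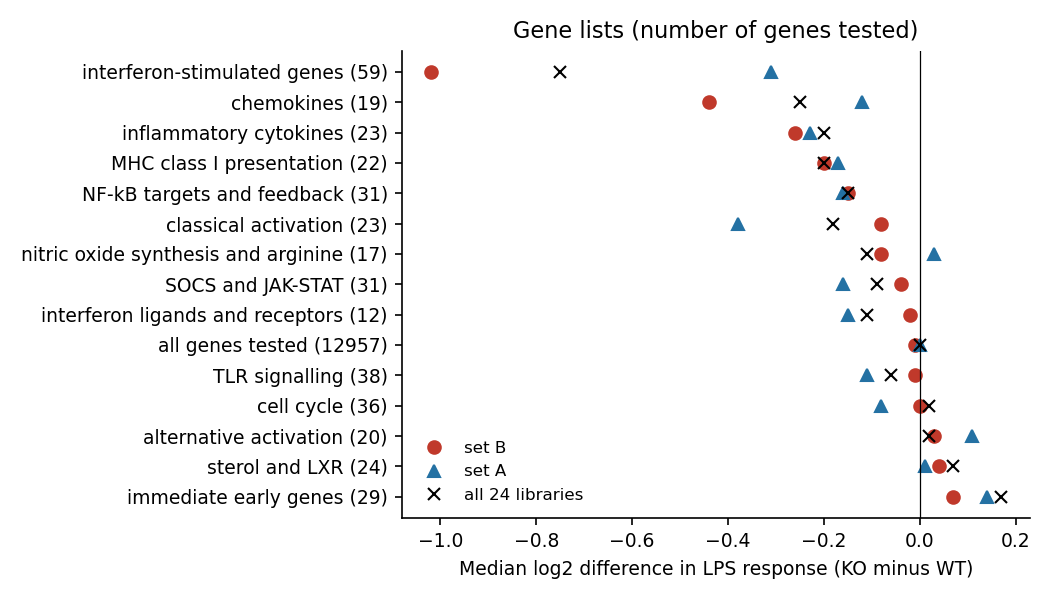
Median log2 difference in the 2 h LPS response (x axis, KO-labelled minus WT-labelled) for 14 gene lists and for all genes tested (y axis, number of genes in brackets). Red circles are set B, blue triangles set A and crosses all 24 libraries. The interferon-stimulated genes lie at -1.02 in set B, -0.31 in set A and -0.75 over all libraries, and the classical activation list lies lower in set A, at -0.38.

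The other pathway lists lay nearer to the median of all genes. The pooled medians were -0.20 for 23 inflammatory cytokines and for 22 genes of MHC class I presentation, -0.18 for 23 genes of classical activation, -0.11 for 12 interferon ligands and receptors and for 17 genes of nitric oxide synthesis and arginine metabolism. They were -0.09 for 31 SOCS and JAK-STAT genes, -0.06 for the TLR signalling list, 0.02 for 20 genes of alternative activation and for 36 cell cycle genes, 0.07 for 24 sterol and LXR genes and 0.17 for 29 immediate early genes. No member of these lists was called over all libraries. Below 0 lay 27 of 31 SOCS and JAK-STAT, 19 of 22 MHC class I and 18 of 23 classical activation genes, against 50.8% of all genes. Of the chemokines 15 of 19 did. Lists that leaned the other way were immediate early (10 of 29 below 0), sterol and LXR (7 of 24), alternative activation (8 of 20) and cell cycle genes (16 of 36). The skeletal muscle markers had the lowest median of all, -2.85, with 15 of 15 tested genes below 0, and this became 0.11 without WT LPS replicates 5 and 6, the libraries with the highest levels of these markers. Without the same libraries the interferon-stimulated list had a median of -0.71, with 59 of 59 below 0.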

How the data were processed

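Bulk RNA-seq libraries of mouse bone marrow-derived macrophages were analysed from 1 deposited file per library, holding raw counts of reads per gene. Counting used HTSeq on mm10, per the submitters' processing notes; the sources used here name no aligner and no strand setting. All 54232 rows per file named a gene, and 0 columns of other samples were present. Gene names and coordinates come from GENCODE M21 (mm10), which held 54165 of the gene IDs. Groups follow the genotype, treatment and time labels. Counts of all 36 libraries in 6 groups were filtered with filterByExpr, scaled by TMM and fitted with edgeR 4.0.16 (quasi-likelihood F test, R 4.3.3, Benjamini-Hochberg adjustment over all genes tested). The genotype difference is the contrast of LPS changes, KO minus WT. CPM values use TMM library sizes, ± after a fold change is the standard error, and for levels the SD.

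Library sets came from the first principal component of log2 CPM (prior count 2) after subtraction of group means; a fit of 12 means (group by set) gave the values per set, their average and their difference. The mean chi-square per gene between replicate pairs (expected near 1 from counting alone) was 2.15 to 8.42 within set B (median 3.58). Within set A it was 3.78 to 52.41 (median 18.54). No library was merged with another in either set. Whether the set B libraries are separate biological replicates was not tested, and the fit to set B libraries alone rests on their narrow spread. The fit of 12 means shares its estimate of the spread of a gene over both sets. The errors given per set therefore do not show the wider spread within set A. DESeq2 1.42.0 and limma 3.58.1 (voom) were alternatives, with other scalings, filters and left-out libraries.

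Certain genes are not reported here. Members and the 24 gene lists were chosen with earlier results of these data known. Named genes were those called over all libraries, the 10 of smallest p in each direction (mean log2 CPM of 2 or more), the 5 per set and direction, the leading member of each list, and 18 genes of the LPS and interferon pathways; Arhgap25, Ankrd55 and Calhm2 from the average over sets, and other set B calls, were named after their values were seen. Promoter letters are from RefSeq (GRCm38.p6).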

Additional observations from a re-analysis of the deposited data

Results flagged for a closer look

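Values of single libraries that stood far from the other 5 of their group, by Dixon's test at the 95% level, were found in 25 of 208 groups of 6 values tested. The nominal rate of about 1 in 20 assumes independent values from 1 population. These genes were picked for the text and many move together, and each group holds 2 sets of 3 libraries. The 25 therefore cannot be compared with that rate. WT control replicate 1, which holds Xist reads, was outlying for interferon-stimulated genes: Isg15 at 18 CPM, Irf7 at 45.1, Mx1 at 17.7, Gbp5 at 2.33, Gbp3 at 8.72, Ifit3 at 20.4, Rtp4 at 72.3 and Slfn2 at 236 CPM, each the highest of its group. The same library was lowest for Lztfl1 at 8.57 CPM and highest for the summed skeletal muscle markers at 83.5 CPM. WT LPS replicate 1, which also holds Xist reads, was lowest of its group for summed erythroid and megakaryocyte markers at 56.1 CPM. KO LPS replicate 2 lay low for Ccl5 (391.5 CPM), Znfx1 (262 CPM), Nfkb1 (302 CPM), Parp14 (430 CPM) and Dtx3l (93.9 CPM). WT control replicate 3 lay high for Cxcl10 (2.12 CPM), Nos2 (2.04 CPM), Il1b (1.87 CPM) and Nos1 (0.255 CPM). KO control replicate 3 lay high for Nos2 (2.48 CPM) and Il12b (0.67 CPM), KO control replicate 6 for Nfkb1 (77.1 CPM), and WT LPS replicate 6 for Nos1 (0.3 CPM) and the summed skeletal muscle markers (639 CPM).

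The LPS response differed between genotypes in set B, by the test of the difference itself, for genes described above. The log2 differences below -2 were those of Isg15 (-2.72), Ifit1 (-2.71), Ifit3 (-2.45), Oasl1 (-2.37), Rsad2 (-2.34), Mx1 (-2.24), Irf7 (-2.14) and Rtp4 (-2.02), with Cmpk2 at -2.0. Ccl5 had -1.91, Cxcl10 -1.89, Ifi211 -1.85, Ifih1 -1.41, Slfn2 and Parp14 -1.17, Dtx3l -1.02, Znfx1 -0.98, Stat2 -0.95, Irf9 -0.82 and Rhob -0.68. In the other direction Arhgap25 had 0.91 and Lztfl1 0.69. In set A the differences were 0.53 for Zfand5 and -0.85 for Zfp260. Between the sets, set B minus set A, the differences were -2.89 for Isg15 and -2.11 for Ifi211.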

How the results depend on the processing

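No paired analysis of single libraries was run, because the labels carry no replicate numbers. The BMDM prefix marks 1 library in each group, and Xist reads mark replicate 1 of both WT-labelled groups. Whether these or other libraries were paired across treatments was not tested. The library set, used as a block instead, gave 0 calls as an additive term and 18 as an average over the sets. The genotype difference over all libraries stayed at 0 calls under each alternative scaling, filter and test and without any 1 of the 24 libraries, but was 18 genes averaged over the sets and 133 from set B alone. Without a count filter the calls were 146 in set A, 105 in set B and 68 for set B minus set A. Set A had 0 calls from its libraries alone, 1 without the pair with Xist reads and 1 without WT LPS library 6; set B alone gave 133, and set B minus set A gave 7 without the pair with Xist reads. With 1 library left out, calls ranged from 0 to 43 in set A, 16 to 42 in set B and 2 to 10 for their difference. LPS calls by library totals alone were 7278 in KO-labelled and 7618 in WT-labelled libraries. KO minus WT in controls gave 19 calls, 30 with set as a term, 7 in set A alone, 1362 in set B alone, 79 without the pair with Xist reads and 3 to 73 with 1 library left out; at 2 h it gave 3, 9 with set as a term, 9 in set A alone and 1363 in set B alone.

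Signs turned in set A alone for Isg15 (0.17), Ifi211 (0.25), Rtp4 (0.06) and Lztfl1 (-0.28), and in set B alone for Tnf (-0.29), Socs1 (0.28), Zfand5 (-0.09) and Zfp260 (0.06). Without the pair with Xist reads Socs1 was 0.14 and Il10 0.06, and Socs1 was 0.01 without WT LPS replicates 5 and 6. With 1 library left out Nos2 ranged from -2.51 to 0.14, Socs1 from -0.23 to 0.14 and Il10 from -0.43 to 0.19, while Il1b kept its sign (-1.95 to -0.74). List medians then ranged from -1 to -0.55 for interferon-stimulated genes, -0.49 to -0.16 for chemokines, -0.39 to -0.05 for classical activation, -0.3 to -0.06 for MHC class I, -0.29 to -0.12 for cytokines and 0.08 to 0.31 for immediate early genes, and crossed 0 for TLR signalling, alternative activation and cell cycle. The cause of these changes was not tested. Of the other values of named genes, 1417 kept their direction and side of the threshold and 41 newly passed it.

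Low control counts limit the difference for Cxcl10, Gbp5, Ccl5, Il1b and Nos2, and the spread between sets enters each error of the pooled fit. Alternatives naming the pair with Xist reads, WT LPS libraries 5 or 6 within a set, or 1 set for the results by set were chosen after the data were seen.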
